A study of Mus musculus with 7 samples.

Results

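miR-204, miR-218, miR-224 and miR-708 are 4 of the 517 mouse miRNAs measured by quantitative PCR in M1 macrophages and aorta. They were taken by name from the table of Ct values. Ct is the number of PCR cycles a well needs to reach a set fluorescence, and an early crossing means more of the RNA. They had been singled out because these samples showed less of them in macrophages than in aorta. That difference is therefore described below without a test. The tested cells were 3 cultures of C57BL/6 bone marrow cells from female mice aged 6 to 8 weeks, grown for 7 days in medium conditioned by L929 cells. They were driven to the inflammatory M1 state with 100 ng/ml lipopolysaccharide (14 hours) and 10 ng/ml interferon-γ (6 hours). Set against them were 4 untreated aortas of female mice of the same age, labelled apoE-/-, a strain that lacks apolipoprotein E. The series title calls the aortic tissue normal, so that strain label is uncertain. The groups differ in labelled strain as well as in kind of sample, and these cannot be told apart. Each sample is labelled a biological replicate, and no unstimulated macrophages were measured.

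miRNAs are short RNAs cut from the stem of a hairpin. They lower the output of messenger RNAs that pair with the seed, the bases near the 5′ end. Many miRNA hairpins lie in introns of protein-coding genes and can be made from the host gene's transcript. The hairpins of all 4 miRNAs lie inside the span of such a gene in RefSeq, and host transcripts were not measured here. The host of miR-204 is Trpm3, which encodes a cation channel. miR-204 is well known from the retinal pigment epithelium and, in mouse vascular smooth muscle, as a brake on the bone regulator Runx2. miR-218 comes from one hairpin in Slit2 and another in Slit3, genes for the secreted ligands of Robo receptors, and is known to lower Robo receptors themselves. miR-224 lies in Gabre, which encodes a subunit of the GABA-A receptor, and is known from mouse granulosa cells as a repressor of Smad4. miR-708 lies in Tenm4, a gene for a transmembrane teneurin, and in human airway smooth muscle it lowers CD38.

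The mature RNAs read by the assays were matched by name to RefSeq (build GRCm38.p6), taking the arm that each older name stands for. They are shown with 2 measured relatives because the seed, bases 2 to 8 in capitals, groups them. miR-211 shares the seed of miR-204, and miR-28 shares that of miR-708.
miR-204: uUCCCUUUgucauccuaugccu
miR-211: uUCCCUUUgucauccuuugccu
miR-708: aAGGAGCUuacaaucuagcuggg
miR-28: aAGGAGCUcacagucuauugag
miR-218: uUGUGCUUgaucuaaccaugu
miR-224: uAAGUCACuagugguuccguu
miR-204 lies at chr19:22750610-22750631 on the plus strand and miR-708 at chr7:96249450-96249472 on the plus strand. miR-224 lies at chrX:72261085-72261105 on the minus strand. miR-218 has copies at chr5:48223966-48223986 and chr11:35616840-35616860, both on the plus strand. miR-211, in Trpm1, differs from miR-204 at 1 of 22 bases, the substitution A17U counted from the 5′ end of miR-204. miR-28, in Lpp, is identical to miR-708 over the first 8 bases and at 16 of 22 positions in all. Among the RefSeq mature miRNAs, no other has the seed of miR-224. miR-204 also shares its seed with miR-7670-3p, and miR-218 shares its seed with miR-7002-3p, neither of which was analysed here.

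miR-204, miR-218 and miR-708 crossed later than the sample's mean Ct in every macrophage sample and earlier than it in every aorta, while miR-224 did not cross in any macrophage sample. miR-204 crossed at Ct 29.1, 27.6 and 30.2 in M1 replicates 1, 2 and 3, against 18.3, 19.5, 17.1 and 18.4 in aortas 1, 2, 3 and 4. miR-218 crossed at Ct 34.7, 31.65 and 33.9 in the M1 replicates, against 20.5, 22.3, 21.0 and 21.5 in the aortas. The latest aorta well of each lay many cycles before the earliest macrophage well. miR-224 was listed at Ct 40, the value of wells that did not cross, in all 3 M1 replicates, against 22.6, 23.0, 22.0 and 22.4 in the aortas. miR-708 crossed at Ct 31.1, 28.2 and 34.2 in the M1 replicates, against 19.8, 22.1, 18.7 and 20.9 in the aortas. For all 4 the groups did not overlap. M1 samples gave less signal as a whole. They had 326 to 366 detected miRNAs (Ct 35 or earlier) and a mean Ct of 25.4 to 27.8 over the 296 miRNAs detected in all 7 samples. The aortas had 416 to 454 detected miRNAs and a mean Ct of 22.6 to 24.7. In bulk RNA, fewer cells of a type and less of a miRNA per cell cannot be told apart.

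**Figure D1:**
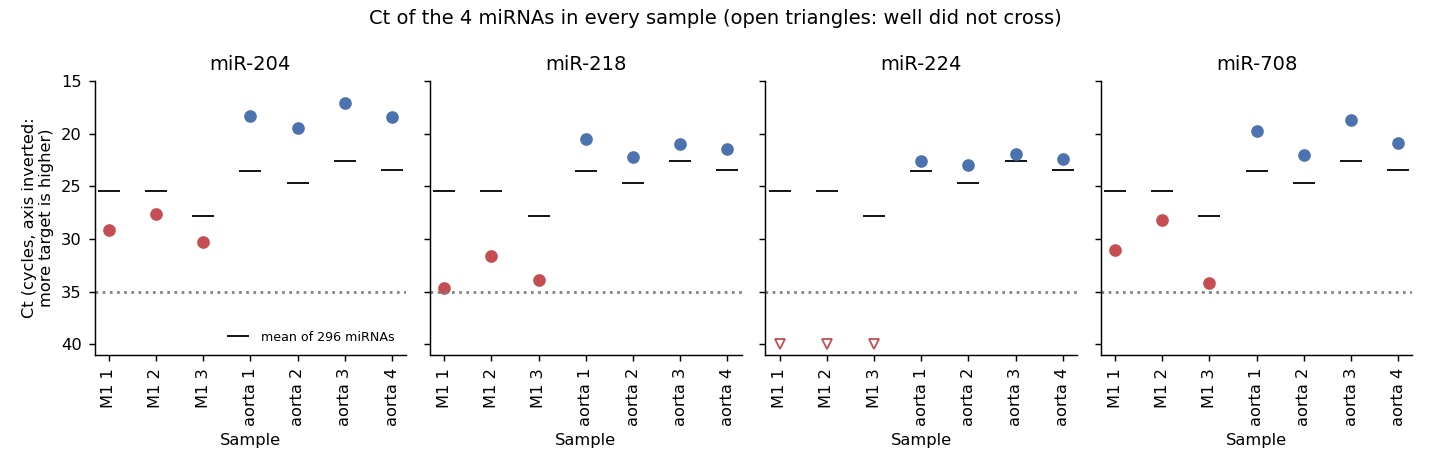
Ct in cycles (inverted axis) of miR-204, miR-218, miR-224 and miR-708 in the 3 M1 macrophage samples (red) and the 4 aortas (blue), with open triangles for wells that did not cross, a black dash for each sample's mean over 296 miRNAs, and a dotted line at Ct 35. The macrophage wells lie below the sample's mean in every panel and the aorta wells above it.

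To remove the difference in overall signal, each Ct was subtracted from the sample's mean over those 296 miRNAs, with wells later than Ct 35 set to 35. This scaled level is on a log2 scale only where the product doubles at each cycle. That efficiency was not measured, and folds rest on it. On it miR-204 was at -3.70, -2.17 and -2.47 in M1 replicates 1, 2 and 3, against 5.16, 5.24, 5.55 and 5.02 in aortas 1 to 4. The means were -2.78 ± 0.81 (SD, n = 3) in macrophages and 5.24 ± 0.22 (SD, n = 4) in aorta, a difference of -8.02 ± 0.48 (SE), or 260.1-fold lower. The 4 aortas lay within 0.53 of each other, and only 7.77% of the 386 tested miRNAs detected in every aorta had a smaller SD there. miR-204 was thus among the steadiest miRNAs over the aortas. The SE of each difference, here and below, comes from the limma model fitted to all tested miRNAs. It is not computed from the SDs beside it.

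miR-218 was at -9.29, -6.20 and -6.11 in the M1 replicates, against 2.97, 2.45, 1.67 and 1.95 in the aortas. It averaged -7.20 ± 1.81 (SD, n = 3) in macrophages and 2.26 ± 0.57 (SD, n = 4) in aorta, a difference of -9.46 ± 0.85 (SE), or 704-fold lower. M1 replicate 1, whose well was within 1 cycle of the limit, stood below the other macrophage samples, and without it miR-218 was 342-fold lower (-8.42).

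miR-224 has only a bound in macrophages. Its scaled level was 0.87, 1.75, 0.66 and 1.06 in aortas 1 to 4. The detection limit in M1 replicates 1, 2 and 3 corresponds to -9.61, -9.55 and -7.23, so miR-224 was at least 945-fold lower in macrophages than its aorta mean of 1.09 ± 0.47 (SD, n = 4). The bound moves with M1 replicate 3, which had the latest mean Ct, and without that sample it was 1517-fold (-10.57). With wells kept at their listed Ct of 40 the difference would be -14.88, and with a limit of Ct 32 it was -7.17.

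miR-708 was the most variable of the 4 in the aortas. In macrophages its SD was only slightly above the 1.81 of miR-218, and miR-224 has no detected well to compare. miR-708 was at -5.69, -2.77 and -6.42 in the M1 replicates, against 3.71, 2.65, 3.91 and 2.54 in the aortas. The means were -4.96 ± 1.93 (SD, n = 3) in macrophages and 3.20 ± 0.71 (SD, n = 4) in aorta, a difference of -8.16 ± 0.91 (SE), or 286-fold lower. The macrophage samples spanned 3.65 and the aortas 1.37 on this scale. Without M1 replicate 2, the highest macrophage sample, miR-708 was 599-fold lower (-9.23), and without M1 replicate 3 it was 161-fold lower (-7.33).

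The 4 miRNAs did not rise and fall together over the aortas. Aorta 3 had the highest level of miR-204 and miR-708 and the lowest of miR-218 and miR-224. Among macrophage samples, M1 replicate 1 was lowest for miR-204 and miR-218, and M1 replicate 3 was lowest for miR-708.

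Limma compared the groups for the 429 miRNAs with 3 or more detected wells in one group, with p adjusted by the Benjamini-Hochberg method. At an adjusted p under 0.05, 55.5% of them differed, with 30.8% lower and 24.7% higher in macrophages. Every macrophage sample lay below every aorta for 31.5% of them, as for these 4, and above every aorta for 27.3%. A difference at least as low as that of miR-204, the smallest in size of the 4, was found for 6.06% of the tested miRNAs, these 4 included. Since the 4 were chosen for this contrast, these shares are given as the setting only. Counted from the lowest difference, miR-224 ranked 14, miR-218 ranked 17, miR-708 ranked 23 and miR-204 ranked 26 of 429.

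The same differences can be read in cycles against 1 other well of the sample. snoRNA429, a small nucleolar RNA, was taken because its scaled level was nearly equal in the groups, so the delays to it restate the scaled differences and are no separate evidence. It had scaled levels of 6.98 ± 0.06 (SD, n = 3) in macrophages and 7.03 ± 0.27 (SD, n = 4) in aorta, while the other mouse reference RNAs were higher in macrophages by 0.66 to 3.15 on that scale. miR-204 crossed 10.7, 9.07 and 9.47 cycles after it in the M1 replicates, against 2.05, 2.06, 1.29 and 1.75 cycles in the aortas. miR-218 crossed 16.3, 13.1 and 13.1 cycles after it in the M1 replicates, against 4.23, 4.85, 5.16 and 4.82 cycles in the aortas. For miR-708 the delay was 12.7, 9.68 and 13.4 cycles in the M1 replicates, against 3.50, 4.66, 2.93 and 4.22 cycles in the aortas. The macrophage delays lay above all aorta delays for each of these miRNAs. The choice of scaling did move the size of the differences. Over 10 settings, the one above included, the difference ranged from -10.66 to -7.58 for miR-204, from -12.10 to -7.64 for miR-218 and from -10.80 to -7.16 for miR-708. The bound for miR-224 ranged from -15.88 to -7.17, while the median over tested miRNAs ranged from -2.85 to 0.41.

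**Figure D2:**
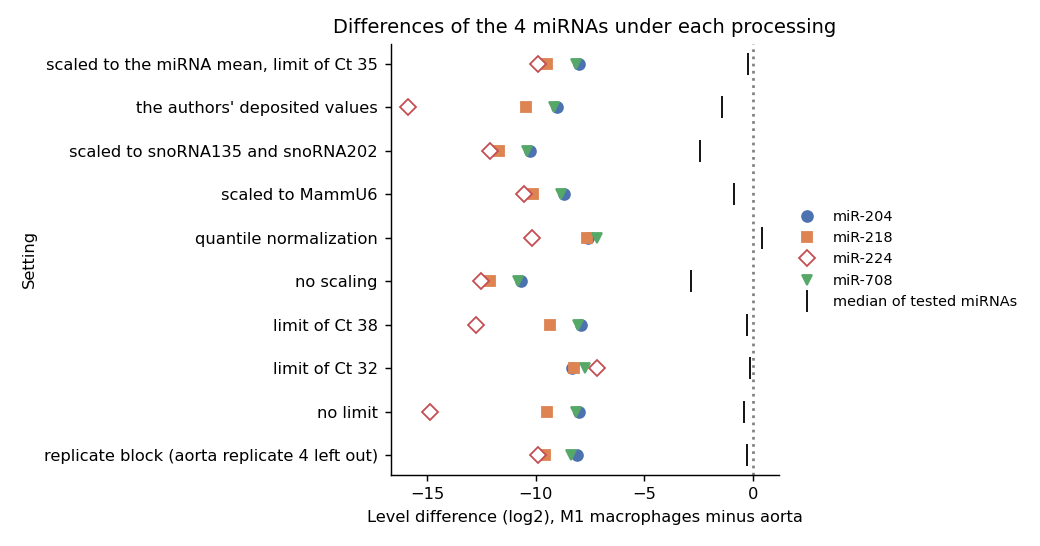
Level difference on the log2 scale, M1 macrophages minus aorta, of the 4 miRNAs under 10 settings of the scaling, the detection limit or the replicate block (rows), with a black bar for the median of the tested miRNAs. miR-224 (open diamonds) has no detected macrophage well, so its position follows the limit, and all points of the 4 miRNAs lie below -7.

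The relatives that share a seed were measured by assays of their own. miR-28, which has the seed of miR-708, crossed at Ct 23.8, 24.0 and 26.0 in the M1 replicates, against 21.4, 22.2, 21.0 and 21.8 in the aortas. Its scaled level was 1.62 ± 0.16 (SD, n = 3) in macrophages and 1.95 ± 0.39 (SD, n = 4) in aorta, and the groups overlapped. The difference of -0.33 ± 0.38 (SE) did not pass (limma, adjusted p = 0.506). With no scaling it was -2.97 (limma, adjusted p = 0.0182) and with scaling to snoRNA135 and snoRNA202 it was -2.57 (limma, adjusted p = 0.00329), so whether miR-28 was lower depended on the scaling. The Ct difference within a sample, miR-28 minus miR-708, carries no scaling. It was -7.26, -4.26 and -8.22 cycles in the M1 replicates, against 1.66, 0.185, 2.27 and 0.87 cycles in the aortas. miR-28 crossed before miR-708 in every macrophage sample and after it in every aorta. Since miR-708 was singled out for its low macrophage level, this order is a description, and a difference between the relatives was not tested.

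miR-211, which has the seed of miR-204, crossed at Ct 27.9 and 27.4 in M1 replicates 1 and 2 and did not cross in M1 replicate 3, against 24.3, 24.9, 22.4 and 24.8 in the aortas. It was detected in 2 of 3 macrophage samples, and with the undetected well at the limit its difference was -3.35 ± 1.26 (SE), which did not pass (limma, adjusted p = 0.0563). It did pass with scaling to MammU6 (limma, adjusted p = 0.0237), with scaling to snoRNA135 and snoRNA202 (limma, adjusted p = 0.00619), with no scaling (limma, adjusted p = 0.0146), with a limit of Ct 32 (limma, adjusted p = 0.0115) and without M1 replicate 2 (limma, adjusted p = 0.0347). miR-211 minus miR-204 was -1.19 and -0.24 cycles in M1 replicates 1 and 2, against 6.02, 5.45, 5.29 and 6.41 cycles in aortas 1 to 4. In the 2 macrophage samples that showed both, the assays thus crossed within 1.19 cycles of each other, with miR-211 first. Mature RNAs that differ at 1 base can be picked up by each other's assay, which was not tested.

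**Figure D3:**
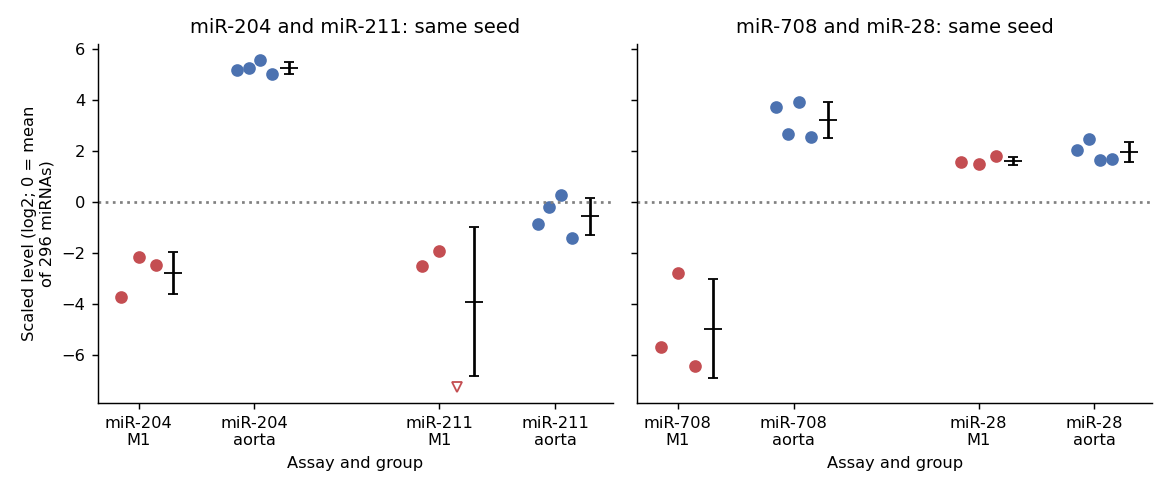
Scaled level (log2, 0 is the mean of 296 miRNAs) of miR-204 and miR-211 (left) and of miR-708 and miR-28 (right) in M1 macrophages (red, n = 3) and aorta (blue, n = 4), with mean and SD in black and an open triangle for a well at the limit. miR-28 lies between 1 and 3 in both groups, while miR-708 has a gap between them of 5.31.

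The opposite strands of the hairpins were measured for miR-218 and miR-708. The miR-218 assay cannot separate the Slit2 and Slit3 copies, which give the same mature RNA, but their other strands differ. The hairpins are shown for that reason, with both mature arms in capitals.
Mir218-1: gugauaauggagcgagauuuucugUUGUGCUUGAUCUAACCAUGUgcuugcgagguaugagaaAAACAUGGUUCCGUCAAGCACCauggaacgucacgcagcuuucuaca
Mir218-2: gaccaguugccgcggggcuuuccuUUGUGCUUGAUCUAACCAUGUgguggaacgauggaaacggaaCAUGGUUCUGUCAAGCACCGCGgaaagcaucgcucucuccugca
Mir218-1 lies at chr5:48223942-48224051 in Slit2 and Mir218-2 at chr11:35616816-35616925 in Slit3, both on the plus strand. The 3′ arms overlap over 19 bases, 18 of them identical, with C12U as the substitution, counted from the 5′ end of the Mir218-1 arm.

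miR-218-1*, the Slit2 arm, crossed at Ct 32.4 and 37.0 in M1 replicates 1 and 2 and not in replicate 3, against 26.7, 28.5, 25.4 and 27.0 in the aortas. miR-218-2*, the Slit3 arm, did not cross in any macrophage sample, against 31.1, 31.6, 32.5 and 31.7 in the aortas. Both arms were thus seen in every aorta, the Slit3 arm late. In the aortas miR-218-1* crossed 6.15, 6.24, 4.48 and 5.57 cycles after miR-218, and miR-218-2* crossed 10.6, 9.33, 11.6 and 10.2 cycles after it. Assays can differ in efficiency, so these delays are no measure of how much each host gene gives. Only M1 replicate 1 had miR-218-1* within the limit. There the difference between the strands was -2.29 cycles, the opposite strand crossing before miR-218. With undetected wells at the limit miR-218-1* was at -7.93 ± 1.41 (SD, n = 3) in macrophages and -3.35 ± 0.44 (SD, n = 4) in aorta. For miR-218-2* the limits of the macrophage samples overlapped the aorta levels, so its direction cannot be given.

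miR-708* crossed at Ct 31.1 in M1 replicate 1 and not in the other two, against 26.7, 29.0, 25.45 and 28.4 in the aortas. Over the aortas it kept an even distance to miR-708, at 6.95, 6.985, 6.735 and 7.50 cycles. Both strands were lowest in aorta 4 and highest in aorta 3 on the scaled level, with aortas 2 and 1 between them in that order. In M1 replicate 1 the strands crossed 0.058 cycles apart. The M1 wells of miR-708* had a level of -7.51 ± 1.92 (SD, n = 3) with undetected wells at the limit, against -3.84 ± 0.98 (SD, n = 4) in aorta. No well of the opposite strands of miR-204 and miR-224 was analysed here.

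**Figure D4:**
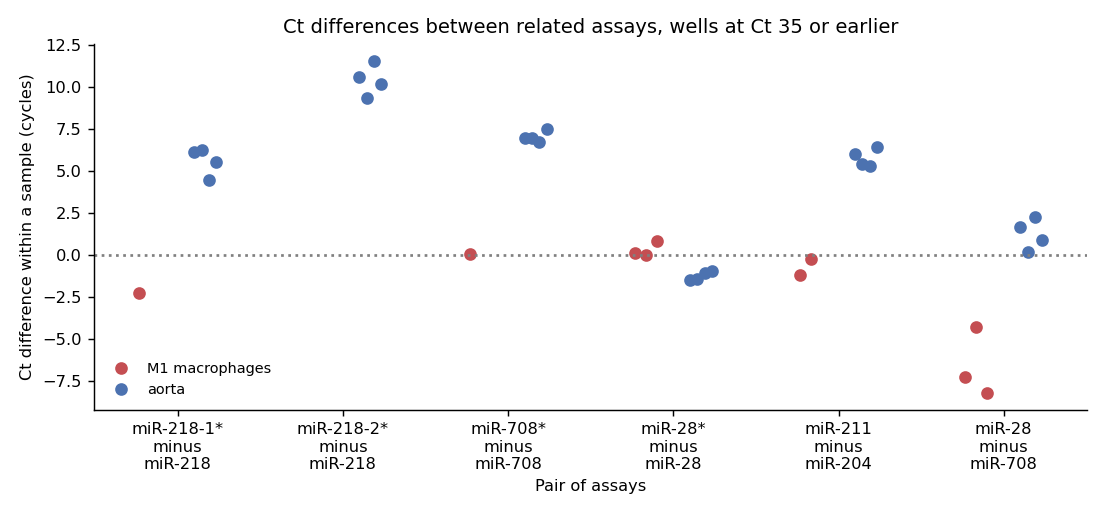
Ct differences in cycles within a sample between related assays, for samples where both wells were at Ct 35 or earlier, in M1 macrophages (red) and aorta (blue). In the aortas miR-708* lies between 6.735 and 7.50 cycles after miR-708, and miR-28 minus miR-708 is below 0 in all 3 macrophage samples and above 0 in all 4 aortas.

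For miR-452, which lies in the same host gene as miR-224, no direction can be given. It crossed at Ct 26.9 in M1 replicate 1 and not in the other macrophage samples, against 26.3 in aorta 1 and 26.3 in aorta 3, with no crossing in aortas 2 and 4. Wells were either near one Ct or uncrossed in both groups, and miR-452 was detected in too few samples to be tested. Where both crossed, in aortas 1 and 3, miR-452 came 3.65 and 4.30 cycles after miR-224.

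Other miRNAs with hosts lay on both sides of 0. Of 88 listed miRNAs from introns of protein-coding genes, the 4 above left out, 81 were measured and 74 of these lay inside the span of the listed host in RefSeq. Hosts were taken from general knowledge. In macrophages 22 of the 69 tested were lower (31.9%) and 18 higher (26.1%), and the other 29 missed the threshold, with a median difference of 0.11 against -0.21 over all tested miRNAs. These shares are near those of all tested miRNAs. A difference at least as low as that of miR-204 was found for 6.06% of all tested miRNAs, the 4 chosen ones counted. In the list, which leaves those out, it was found for 4 of the 69, or 5.80%. Both strands of the Egfl7 intron, miR-126-3p and miR-126-5p, known from endothelium, were among them, at -10.86 ± 0.40 (SE; limma, adjusted p = 2.88e-06) and -10.00 ± 0.66 (SE; -9.21 without M1 replicate 1). miR-676, from the Eda gene for ectodysplasin, was at -10.07 ± 1.53 (SE), detected in 2 macrophage samples, and was -8.45 without M1 replicate 2 and -12.00 without M1 replicate 3. miR-488*, from Astn1, had the lowest value of the list at -13.56 ± 4.83 (SE). Only M1 replicate 1 detected it, so the value follows the limit, at -11.85 with Ct 32 (limma, adjusted p = 0.0582) and -16.89 with no limit. The value also rests on early wells in aortas 2 and 4. miR-488* crossed at Ct 6.15 in aorta 2 and 12.7 in aorta 4, against 23.8 and 23.7 in the other aortas. In aortas 2 and 4 the reference RNA MammU6 crossed later, at Ct 14.3 and 13.1. The size of the difference, and its place among those as low as miR-204, are therefore in doubt. miR-488* lost its call without aorta replicate 4 (limma, adjusted p = 0.0832) or any single macrophage sample (limma, adjusted p = 0.0659, 0.136 and 0.119 without M1 replicates 1, 2 and 3). It was -9.73 without aorta replicate 2, -15.98 without aorta 1, -16.25 without aorta 3, -12.32 without aorta 4, and -15.38 and -12.05 without M1 replicates 1 and 2. miR-455, from the collagen gene Col27a1, was also detected in M1 replicate 1 alone. It was at -7.83 ± 0.94 (SE), -6.12 with a limit of Ct 32, -11.16 with no limit, -12.16 with the deposited values, -8.74 without M1 replicate 1 and -6.77 without M1 replicate 2.

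The highest members that passed were miR-501-3p at 4.67, miR-362-3p at 3.48, miR-98 at 3.28 and miR-340-5p at 3.16 on the log2 scale, and miR-764-5p at 3.96. miR-483* was higher still at 5.00 but did not pass (limma, adjusted p = 0.129). miR-501-3p and miR-362-3p come from the chloride transporter gene Clcn5. Each lost its call without scaling, and all but miR-501-3p did so with scaling to snoRNA135 and snoRNA202. With the deposited values miR-98 and miR-764-5p also missed the threshold (limma, adjusted p = 0.0576 and 0.0788), as did miR-98 with MammU6 (limma, adjusted p = 0.0663). miR-501-3p was 5.80 without M1 replicate 3 and miR-98 was 3.92 without aorta replicate 3. miR-764-5p, from the serotonin receptor gene Htr2c, was 2.93 and 4.74 without aorta replicates 1 and 4 and 4.61 without M1 replicate 2, and missed the threshold without aorta replicate 2 or M1 replicate 1 or 3 (limma, adjusted p = 0.0673, 0.0756 and 0.114).

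**Figure D5:**
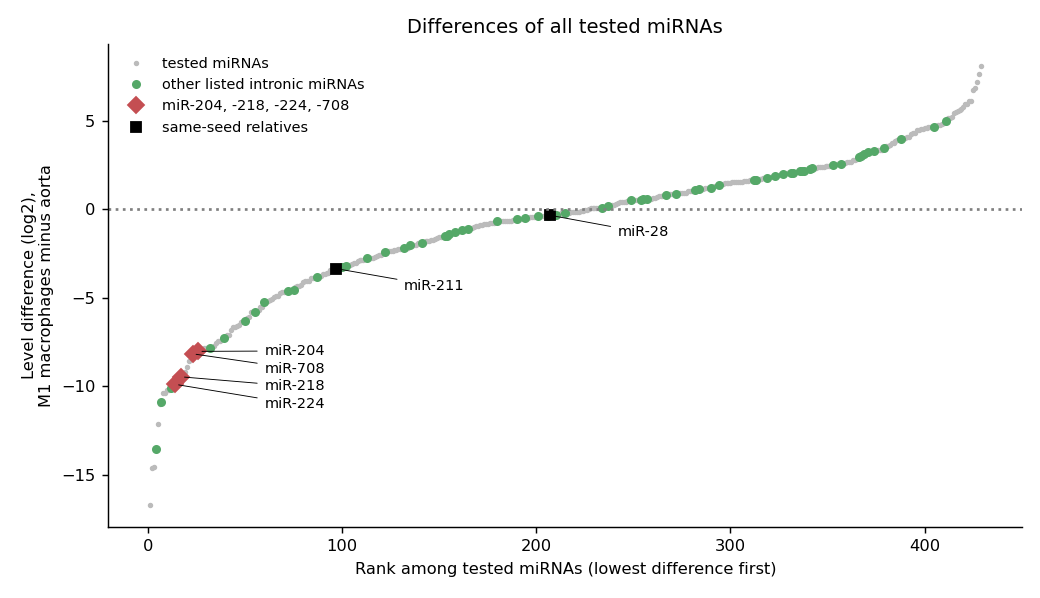
Level difference on the log2 scale, M1 macrophages minus aorta, of the 429 tested miRNAs in order, with miR-204, miR-218, miR-224 (a bound) and miR-708 as red diamonds, their same-seed relatives miR-211 and miR-28 as black squares, and other listed intronic miRNAs in green. The 4 miRNAs hold ranks 14 to 26, miR-28 lies near 0, and the green points run from -13.56 to 5.00.

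The profiles nearest to the 4 miRNAs were found by the root mean square distance of scaled levels over the 7 samples, after centring each miRNA on the mean of its group means. This distance mostly follows the gap between the groups. miR-204 was nearest to miR-199a-3p at 0.64, miR-214 at 0.68 and miR-379 at 0.74, against a median of 4.12 over the tested miRNAs. miR-199a-3p and miR-214 are known from mesenchymal cells. miR-218 was nearest to miR-126-5p at 0.52, then miR-485* at 0.90 and miR-10b at 0.92. For miR-224 the nearest were miR-193b at 0.397, miR-485* at 0.42 and miR-187 at 0.61. miR-485* and miR-187, like miR-224, were detected in no macrophage sample, so their macrophage values are the same limits. The distance of miR-224 to miR-193b, which was detected in all 3 macrophage samples, sets measured levels against those limits. miR-10b was past the limit in M1 replicate 3 (Ct 37.0). miR-708 had no neighbour as near. Its closest were miR-204 at 0.98, miR-376c at 1.04 and miR-10b at 1.05.

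Cell type markers moved with these differences, and their part in them was not tested. The levels given are log2 of the summed linear levels of a list. The 3 miRNAs listed for smooth muscle (miR-143, miR-145 and miR-133a) were all lower in macrophages (limma). Their summed level was -3.17 to -1.21 in macrophages and 12.19 to 13.15 in aorta. miR-133a, also known from striated muscle, was detected in no macrophage sample. Both endothelial miRNAs were lower, at -2.90 to -1.65 in macrophages and 8.29 to 8.87 in aorta. The 3 fibroblast miRNAs were lower, at -1.09 to -0.96 in macrophages and 6.42 to 7.55 in aorta, as were the 3 fat miRNAs, at -1.04 to 1.36 in macrophages and 7.95 to 8.97 in aorta. Of 4 striated muscle miRNAs 2 were lower (-1.38 to 0.52 in macrophages, 3.79 to 5.78 in aorta), and both measured red blood cell miRNAs were lower (-7.93 to -4.20 in macrophages, 2.20 to 4.40 in aorta). Of 4 epithelial miRNAs 2 were lower (0.99 to 1.92 in macrophages, 1.65 to 3.04 in aorta). The 4 nerve miRNAs went both ways, with 2 lower and 1 higher (5.28 to 16.29 in macrophages, 0.74 to 4.13 in aorta). The higher one, miR-124, was at 16.29 in M1 replicate 1 and at 5.32 and 5.26 in M1 replicates 2 and 3, against 2.11, 3.98, -0.04 and -2.65 in the aortas. It missed the threshold without M1 replicate 1 (difference 4.43, against 8.10 with it; limma, adjusted p = 0.0783), and also without aorta replicate 1, 3 or 4 (limma, adjusted p = 0.0601, 0.0811 and 0.0897). Of 4 leukocyte miRNAs 3 were higher and miR-150 was lower (8.97 to 9.97 in macrophages, 5.49 to 6.68 in aorta), and all 3 activation miRNAs (miR-155, miR-147 and miR-146a) were higher (7.15 to 9.78 in macrophages, 3.56 to 4.40 in aorta). The aorta therefore held markers of several cell types, and which of its cells carry the 4 miRNAs was not measured.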

How the data were processed

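The authors' deposited raw table holds Ct values, entered as a score in cycles, for 524 assays in 3 M1 macrophage samples and 4 aortas. Uncrossed wells are listed at 40. A further deposited table holds log2 values. They matched, to within 5.0e-05 cycles, each Ct less the mean of that sample's MammU6 and snoRNA202 wells. The instrument and any preamplification were not stated in the labels. RNA came from a mirVana isolation, per the labels' protocols. Mean Ct and the number of detected miRNAs stand for depth, and 7 samples limit the precision.

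A well was detected at Ct 35 or earlier. Levels were scaled to the mean over 296 miRNAs detected in all samples, and the groups were then tested for 429 miRNAs in R 4.3.3 by limma 3.58.1, using lmFit and eBayes with group as the only term. Python 3.11.15, pandas 2.3.3, numpy 2.4.6 and matplotlib 3.10.9 made the tables and plots. Alternatives were the deposited values, scaling to MammU6 or to snoRNA135 with snoRNA202, no scaling, quantile normalization, other limits and filters, a replicate block, and leaving out each sample.

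The members and lists were chosen with earlier results of these data known. Named are the 4 miRNAs, their measured opposite strands, seed and intron relatives, the 3 nearest profiles of each, up to 5 listed intronic miRNAs per direction and the cell type markers. miR-28* was added after its values were seen.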

Additional observations from a re-analysis of the deposited data

Results flagged for a closer look

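An assay outside the comparison gave signal. The plant miR-159a assay, which has no mouse target, was listed at 40 in M1 replicates 1 and 2 and crossed at Ct 31.4 in M1 replicate 3, against Ct 27.9, 28.4 and 21.122 in aortas 1, 2 and 3 and 40 in aorta 4. The Ct of 31.4 is earlier than the wells of miR-218 (31.65 to 34.7) in macrophages. Within M1 replicate 3 the plant assay crossed before miR-218 (Ct 33.9) and miR-708 (Ct 34.2) and after miR-204 (Ct 30.2). In aorta 3 the plant assay crossed before miR-224 (Ct 22.0) and after miR-204, miR-218 and miR-708. In aortas 1 and 2 it crossed after all 4 miRNAs. The part of such signal in wells of other assays was not tested. In 51 named miRNAs detected in every aorta, Dixon's test set no aorta apart from the other 3. With so few aortas it can miss wells that deviate together, so this cannot show that the aorta values hold no outliers. miR-488* was not flagged. It crossed at Ct 6.15 in aorta 2 and 12.7 in aorta 4, against 23.8 and 23.7 in aortas 1 and 3. Its wells in aortas 2 and 4 were earlier than MammU6 there (Ct 14.3 and 13.1).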

How the results depend on the processing

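All 4 miRNAs stayed lower in macrophages under every alternative run. They were chosen for this difference in the same data, so its kept direction is a description and no support for it. The difference of miR-204 was -9.02 with the deposited values, -10.26 with the snoRNA135 and snoRNA202 pair, -8.68 with MammU6 and -10.66 with no scaling. That of miR-218 was -11.70 with the snoRNA pair, -12.10 with no scaling and -7.64 with quantile normalization. The bound of miR-224 was -15.88 with the deposited values, -12.12 with the snoRNA pair, -12.52 with no scaling, -12.77 at a limit of Ct 38, -7.17 at Ct 32 and -14.88 with no limit. That of miR-708 was -10.40 with the snoRNA pair and -10.80 with no scaling. That of miR-708*, which rests on 1 detected macrophage well, was -7.995 with the deposited values, -5.91 with the snoRNA pair, -6.31 with no scaling, -5.55 at Ct 38, -1.96 at Ct 32 and -7.00 with no limit. For miR-218-1*, also with 1 detected macrophage well and a difference of -4.58 with the miRNA mean and Ct 35, these were -7.90, -6.82, -7.22, -6.12, -2.74 and -6.90 in that order of settings. Leaving out 1 sample gave -8.30 to -7.56 for miR-204, -9.93 to -8.42 for miR-218, -10.57 to -9.48 for miR-224 and -9.23 to -7.33 for miR-708. Quantile normalization turned the sign of miR-28 (0.41, limma, adjusted p = 0.342). The count of tested miRNAs lower in macrophages was 132, but 231 with the snoRNA pair, 207 with no scaling and 76 with only miRNAs detected in all samples. The count higher was 106, but 53 with the deposited values, 32 with the snoRNA pair, 52 with MammU6 and 10 with no scaling. For the intronic list, the count lower was 39 with the snoRNA pair and 35 with no scaling, and the count higher was 7 with the deposited values, 1 with the snoRNA pair, 5 with MammU6 and 0 with no scaling (limma, also 0 at an unadjusted p under 0.05). The difference of a tested miRNA changed, in the median, by -0.99 (deposited), -2.24 (snoRNA pair), -0.66 (MammU6), 0.57 (quantile) and -2.64 (none), and beyond these shifts the cause was not tested. Leaving out 1 sample gave 115 to 139 lower and 90 to 112 higher, and 18 to 21 lower and 16 to 21 higher in the intronic list. The labels name different strains for the groups, though that of the aortas is uncertain, so same-numbered samples were not taken to share an animal. Their deviations correlated at 0.11, 0.008 and -0.074, which cannot settle whether the numbers pair the samples. With the replicate block, 123 were lower and 97 higher, and the differences were -8.11, -9.57, -9.90 and -8.39 for miR-204, miR-218, miR-224 and miR-708. Macrophage wells near or past the limit bound what can be said of miR-218, miR-708, miR-224 and the opposite strands.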

Other observations

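The strands of the miR-28 hairpin, the seed relative of miR-708, differed from each other between the groups. miR-28* crossed at Ct 24.0, 24.0 and 26.8 in M1 replicates 1, 2 and 3, against 19.98, 20.8, 19.9 and 20.8 in the aortas. It was 3.72-fold lower in macrophages (-1.89 ± 0.46 SE; limma, adjusted p = 0.0102), while miR-28 did not pass. The sizes follow the scaling, and miR-28* was at -2.89 with the deposited values, -4.13 with snoRNA135 and snoRNA202 and -4.54 with no scaling. miR-28 passed under the last 2 of these. miR-28* minus miR-28, a difference within the sample that no scaling changes, was 0.15, 0.029 and 0.86 cycles in the M1 replicates, against -1.46, -1.41, -1.07 and -0.93 cycles in the aortas. The groups did not overlap. This comparison was chosen after the values were seen.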
